A study of Danio rerio with 7 samples.

Results

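Glycolysis splits glucose into pyruvate in a fixed series of enzyme steps, and lactate dehydrogenase turns that pyruvate into lactate. The genes described here are 6 zebrafish genes of this route among the 25049 genes of the count table. They were taken by a list of Ensembl gene identifiers that sets no threshold on a measured value. They encode 1 aldolase (aldoaa, ENSDARG00000011665), both forms of glyceraldehyde-3-phosphate dehydrogenase (gapdh, ENSDARG00000043457, and gapdhs, ENSDARG00000039914), phosphoglycerate kinase (pgk1, ENSDARG00000054191), 1 enolase (eno1a, ENSDARG00000022456) and 1 lactate dehydrogenase (ldha, ENSDARG00000101251). All 6 passed the filter on low counts that left 23716 tested genes. The study compared pools of 30 wild-type larvae of Danio rerio, whole body. Between 81 and 96 hpf (hours after fertilization) they were kept at 6% O2 (hypoxia, 3 pools) or at atmospheric 20.9% O2 (normoxia, 4 pools). Poly(A) RNA was sequenced and reads were counted per gene. The labels give wild-type larvae in both groups and name no drug, so the oxygen level is the only labelled difference. The paper's methods describe a hypoxia workstation with a constant CO2 level and do not give the CO2 level of the normoxia group.

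Without oxygen the mitochondrial respiratory chain slows, and glycolysis becomes the main source of ATP. The GAPDH reaction needs NAD+, which lactate dehydrogenase regenerates when it reduces pyruvate to lactate. In vertebrates many genes of this route are known targets of the hypoxia-inducible factors. Zebrafish carry several paralogues of most of these enzymes, so that 1 step can be served by genes that respond differently. The comparison therefore asks, enzyme by enzyme, which step and which paralogue changed at 6% O2.

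Total counts were 67083058 to 78235938 per library, so the 6 genes, with mean counts of 31948 to 70131, were measured with little counting error. Their intervals reflect the spread between pools under TMM scaling. They do not include the choice of scaling, which also moved the log2 fold changes. Levels are given as CPM, the count of a gene relative to the library total after TMM scaling (factors of 1.02 to 1.04 for normoxia, 0.951 to 0.977 for hypoxia). Marker genes of skeletal muscle, heart muscle, neurons, photoreceptors, erythrocytes, liver and epidermis were detected, and the lowest summed level of such a list in any library was 42.1 CPM, for heart muscle. The methods describe each replicate as a pool of its own, and replicates of a group differed by more than sampling noise.

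Of the 6 genes, 5 were higher in hypoxia than in normoxia at an adjusted p under 0.05. The exception was gapdh, whose log2 fold change of 0.09 did not pass the test. The genes eno1a, pgk1 and gapdhs were called differentially expressed genes (DEGs), which required a log2 fold change over 0.6 as well as an adjusted p under 0.05. These 3 of 6 stand beside 3.07% of all tested genes called higher by the same rule. At an adjusted p under 0.05 alone, ldha and aldoaa also rose, giving 5 of 6 beside 24.6% of all tested genes. The same 5 had every hypoxia library above every normoxia library, which held for 26.3% of all tested genes. These shares cover genes of all count levels. The shares among genes with counts as high as those of the 6 were not determined. In all, the 6 genes took 0.360 to 0.375% of a normoxia library's counts and 0.493 to 0.515% of a hypoxia library's. Over all tested genes the median log2 fold change was -0.0044. The adjusted p of a single gene comes from the quasi-likelihood test of edgeR, with Benjamini-Hochberg adjustment over all tested genes.

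**Figure D1:**
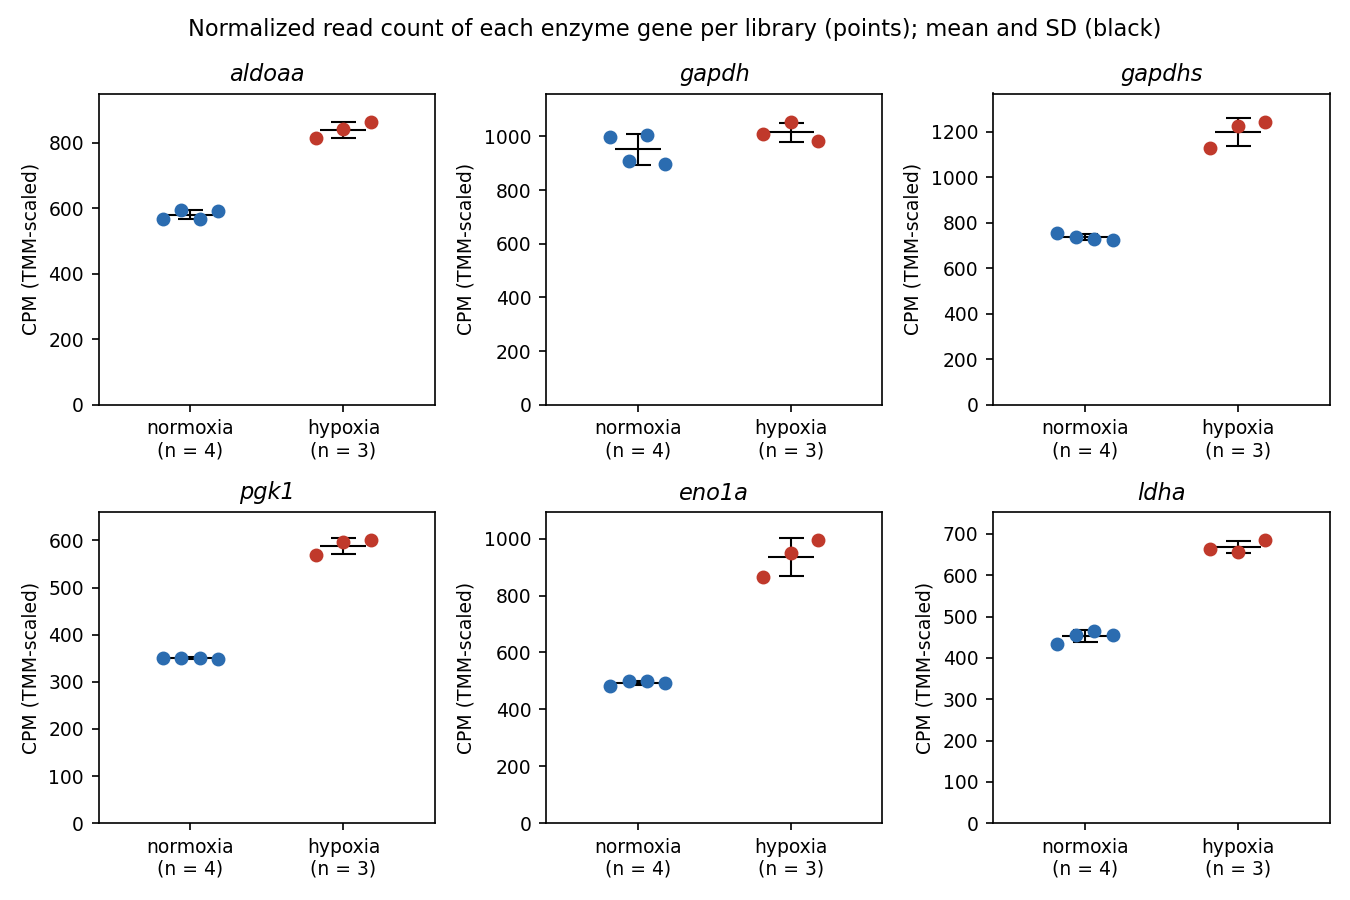
TMM-scaled CPM (y axis, from 0) of each of the 6 genes in the 4 normoxia and 3 hypoxia libraries (points), with mean and SD in black. In 5 panels the hypoxia points lie above all normoxia points, while those of gapdh overlap, with means of 952 and 1014 CPM.

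Aldolase splits fructose-1,6-bisphosphate into 2 triose phosphates. The aldolase gene aldoaa was measured at 568, 595, 568 and 590 CPM in the normoxia libraries 1 to 4 and at 814, 841 and 863 CPM in the hypoxia libraries 1 to 3. The groups did not overlap, with means of 580 ± 14.3 (SD, n = 4) and 840 ± 24.7 CPM (SD, n = 3). The log2 fold change was 0.53 (SE 0.04, 95% interval 0.44 to 0.62, adjusted p = 1.15e-05), or 1.45-fold. It fell short of the log2 threshold of 0.6, so aldoaa was not called a DEG.

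GAPDH oxidises glyceraldehyde-3-phosphate and yields NADH. The 2 genes of this step responded differently. The gene gapdh was at 996, 908, 1006 and 897 CPM in normoxia and at 1008, 1054 and 981 CPM in hypoxia. Its hypoxia library 3 lay below normoxia libraries 1 and 3, so the groups overlapped. The means were 952 ± 57.3 and 1014 ± 37.1 CPM, and the log2 fold change was 0.09 (SE 0.05, 95% interval -0.02 to 0.21, adjusted p = 0.172). This direction depended on the scaling, since the log2 fold change was -0.0042 with library size alone and -0.0595 with loess normalization, and neither passed the test.

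The gene gapdhs was at 755, 735, 727 and 725 CPM in normoxia and at 1126, 1225 and 1243 CPM in hypoxia. All 3 hypoxia libraries were far above the normoxia range. In mammals GAPDHS is the sperm-specific form of the enzyme. In these whole larvae its transcripts were counted in every library. Its means were 735 ± 13.8 and 1198 ± 63.0 CPM, a log2 fold change of 0.70 (SE 0.05, 95% interval 0.60 to 0.80, adjusted p = 3.26e-06), or 1.63-fold. With loess normalization and limma it was 0.55 and no longer past the fold-change threshold, with an adjusted p of 1.01e-05.

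The 2 GAPDH genes can be set against each other within a library, which needs no scaling between libraries. There were 0.758, 0.810, 0.723 and 0.808 gapdhs counts for each gapdh count in normoxia and 1.12, 1.16 and 1.27 in hypoxia. Counts are not corrected for transcript length, so that these ratios can be compared between libraries but do not say which gene has more transcripts. In terms of the counts of both genes, gapdhs held 42.0 to 44.7% in normoxia and 52.8 to 55.9% in hypoxia. The log2 ratio was 0.61 higher in hypoxia (SD 0.08 in normoxia and 0.09 in hypoxia, exact two-sided permutation test p = 0.0286, the smallest that 3 against 4 libraries allow). Depending on the library left out, the difference was 0.56 to 0.65. The paper's methods do not state how reads shared by paralogues were counted, so that counts of near-identical stretches could be split between them.

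Phosphoglycerate kinase makes the first ATP of the pathway. In the identifier table used here the pgk1 gene bears the symbol PGK2, and it was the only gene of this step that was analysed. Its level was 351, 351, 351 and 348 CPM in normoxia and 570, 597 and 600 CPM in hypoxia. The normoxia libraries lay within 4 CPM of each other, and no hypoxia library came near them. The means were 350 ± 1.82 and 589 ± 16.7 CPM, a log2 fold change of 0.75 (SE 0.04, 95% interval 0.66 to 0.83, adjusted p = 7.23e-07), or 1.68-fold.

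Enolase converts 2-phosphoglycerate to phosphoenolpyruvate. The gene eno1a rose most of the 6, from 483, 499, 498 and 494 CPM in normoxia to 864, 950 and 994 CPM in hypoxia. Its hypoxia libraries were also the most spread of the 6 genes relative to their mean (coefficient of variation 7.07%), although the lowest of them was still far above the normoxia range. The means were 493 ± 7.33 and 936 ± 66.2 CPM, a log2 fold change of 0.92 (SE 0.05, 95% interval 0.81 to 1.03, adjusted p = 9.19e-07), or 1.90-fold. Of all tested genes, 0.966% had a higher log2 fold change.

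Lactate dehydrogenase A favours the reduction of pyruvate to lactate in mammals. The gene ldha was at 434, 456, 466 and 455 CPM in normoxia and at 664, 655 and 684 CPM in hypoxia. The groups did not overlap, and the hypoxia libraries were close to each other. The means were 453 ± 13.5 and 668 ± 15.1 CPM, a log2 fold change of 0.56 (SE 0.04, 95% interval 0.47 to 0.65, adjusted p = 8.85e-06), or 1.47-fold. Like aldoaa, ldha rose by the test but stayed under the fold-change threshold of 0.6.

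To order the responses of the 6 genes, the log2 ratio of the counts of every pair was compared between the groups by an exact two-sided permutation test over libraries, with Benjamini-Hochberg adjustment over the 15 pairs. Of these, 13 pairs had an exact permutation p of 0.0286 (adjusted p = 0.033). The pairs share genes, and the share of other gene pairs that reach this p was not determined. Every other member rose relative to gapdh, from 0.44 for aldoaa and 0.47 for ldha to 0.66 for pgk1 and 0.83 for eno1a on the log2 scale. The counts of eno1a per gapdh count were 0.485 to 0.550 in normoxia and 0.857, 0.901 and 1.01 in hypoxia.

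The gene eno1a also rose relative to each of the other members, by 0.17 against pgk1, 0.22 against gapdhs, 0.36 against ldha and 0.39 against aldoaa. The next gene, pgk1, rose relative to ldha by 0.19 and relative to aldoaa by 0.22. Against gapdhs its difference was only 0.05 (exact permutation p = 0.0286), the nearest libraries of the 2 groups lay 0.000458 apart on the log2 scale, and the difference was 0.03 without hypoxia library 1. The order of pgk1 and gapdhs is therefore weakly held. The gene gapdhs rose relative to aldoaa by 0.17.

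The remaining pairs did not pass the test. The log2 ratio of gapdhs to ldha was 0.14 higher in hypoxia (SD 0.07 in each group, exact permutation p = 0.0857, adjusted p = 0.0918), more than the SD of either group, but the groups overlapped. The ratio of ldha to aldoaa was 0.764 to 0.820 in normoxia and 0.779 to 0.816 in hypoxia, a log2 difference of 0.03 (SD 0.05 in normoxia and 0.03 in hypoxia, exact permutation p = 0.4). A p above the threshold does not show that these genes responded alike. By log2 fold change the order was thus eno1a, pgk1, gapdhs, ldha, aldoaa and last gapdh, and the neighbours gapdhs and ldha, and ldha and aldoaa, did not pass the test of their ratio.

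Hypoxia library 3 was the highest of the 7 in 5 of the genes, and hypoxia library 2 in gapdh. Within the groups, the deviations of log2 CPM from the group means ran together most for gapdhs and pgk1 (Pearson r = 0.95 over 7 libraries) and for pgk1 and eno1a (r = 0.92), and ran opposite for gapdh and aldoaa (r = -0.72). These are descriptions over libraries that share their scaling.

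Each member was then set beside the other genes of its own step. Most of these are paired in the identifier table with a symbol in the human style, which is given in capitals, and where paralogues share it the identifier is added. The comparison again used count ratios within a library with the exact permutation test, over 11 pairs, and was added after the data were seen. In 9 of them the exact permutation p was 0.0286 (adjusted p = 0.0349). Here too the pairs share genes, and the share of other gene pairs that reach this p was not determined.

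Of the 5 enolase genes, eno1a had the highest log2 fold change. The others were at 0.45 for eno2, the neuronal form in mammals, 0.30 for ENO4, 0.29 for ENO3, the muscle form in mammals, and 0.29 for ENO1 (ENSDARG00000013750). Relative to them eno1a rose by 0.47 (eno2), 0.61 (ENO4), 0.63 (ENO3) and 0.64 (ENO1), all 4 with p = 0.0286 in the exact permutation test. For ENO3 the counts of eno1a per count were 0.889, 0.928, 0.900 and 0.938 in normoxia and 1.28, 1.43 and 1.56 in hypoxia. The response of the enolase step was therefore unequal. At an adjusted p under 0.05, 4 of its 5 genes were higher, beside 24.6% of all tested genes. Only eno1a was called a DEG, where 3.07% of all tested genes were called higher.

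Among the aldolases, aldoaa did not have the highest log2 fold change. A gene with the symbol ALDOC (ENSDARG00000019702), the form of brain in mammals, went from 422, 436, 449 and 442 CPM to 769, 820 and 868 CPM. Its log2 fold change was 0.91 (SE 0.05, adjusted p = 8.95e-07), and aldoaa fell by 0.37 relative to it (exact permutation p = 0.0286). By contrast, aldoaa rose by 0.45 relative to ALDOA (ENSDARG00000034470), which was at 633 to 667 CPM in normoxia and 687 to 697 CPM in hypoxia (log2 fold change 0.09, adjusted p = 0.0899). Against the second ALDOC gene (ENSDARG00000057661), at under 20 CPM, the difference of 0.12 did not pass (exact permutation p = 0.286).

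Among the 3 lactate dehydrogenase genes, ldhbb was called a DEG at lower CPM than ldha. It had 16.0 to 18.1 CPM in normoxia and 25.3, 29.3 and 27.9 CPM in hypoxia, with a mean count of 1531. Its log2 fold change was 0.67 (SE 0.06, adjusted p = 3.47e-05), and that of ldha did not differ from it by the ratio test (-0.11, exact permutation p = 0.286). The other gene, LDHB (ENSDARG00000019644), stood at 532 to 552 CPM in normoxia and 599 to 619 CPM in hypoxia. It rose by 0.16 on the log2 scale (adjusted p = 0.00479), and ldha rose by 0.40 relative to it (exact permutation p = 0.0286). For each LDHB count there were 0.786 to 0.857 ldha counts in normoxia, against 1.06 to 1.12 in hypoxia.

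**Figure D2:**
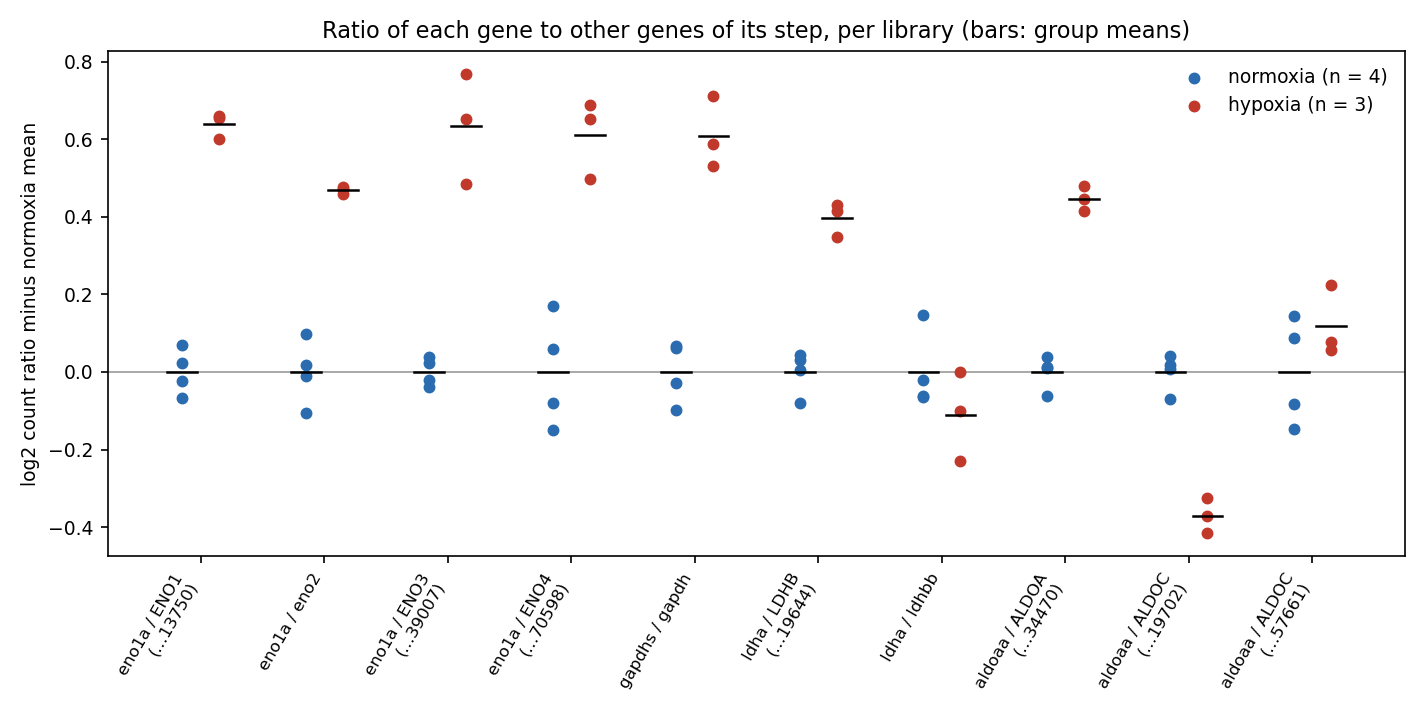
Log2 ratio of the counts of each member to those of another gene of its step, minus the normoxia mean of that ratio (y axis), in the 4 normoxia and 3 hypoxia libraries (points), with group means as bars. The ratio of gapdhs to gapdh was 0.61 higher in hypoxia and that of eno1a to ENO3 0.63 higher, while that of aldoaa to ALDOC (ENSDARG00000019702) was 0.37 lower.

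The remaining steps of the route place the 6 genes in the pathway. They come from a list chosen from textbook knowledge, with earlier results of these data known. Of the 69 listed symbols, 66 were matched, giving 66 tested genes, 60 of them other than the 6. Of these 60 genes, 18 were called higher and 3 lower, and 39 were not called. Over all tested genes, 3.07% were called higher and 7.45% lower. At an adjusted p under 0.05 alone, 34 of the 60 were higher, beside 24.6% of all tested genes. By that rule 9 of the 60 were lower. The share of all tested genes lower by it was not determined, so this count is a description only. The median log2 fold change of the 60 was 0.29, beside -0.0044 over all tested genes. The list holds paralogues that move in opposite directions, so that its median does not stand for its members.

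Of the enzymes that act before the aldolase step, HK1, a hexokinase that traps glucose in the cell, rose from 129 to 141 CPM in normoxia to 191 to 213 CPM in hypoxia (log2 fold change 0.61). Another hexokinase, HK2, which is hypoxia-inducible in mammals, was at -0.41 (adjusted p = 0.00395), and so was lower in hypoxia though not called a DEG. Of the 2 genes named GPI, the isomerase of the second step, 1 had a log2 fold change of 0.75 (ENSDARG00000012987) and the other -0.03 (ENSDARG00000103826, adjusted p = 0.569). Phosphofructokinase commits the sugar to glycolysis, and 3 of its 6 genes were called higher, beside 3.07% of all tested genes. The highest was PFKP (ENSDARG00000012801) at 1.14.

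The highest log2 fold change of the list was that of PFKFB3, whose product makes the activator of phosphofructokinase, fructose-2,6-bisphosphate. It went from 22.6, 27.6, 23.6 and 25.3 CPM to 91.1, 78.1 and 82.6 CPM (log2 fold change 1.76, SE 0.07, adjusted p = 2.25e-07). The other 5 genes of this family were not called, with log2 fold changes from -0.17 to 0.57. None of the 6 members reached a log2 fold change of 1.

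Of the enzymes after aldolase, TPI1 (ENSDARG00000040988), which interconverts the triose phosphates, rose by 0.61 on the log2 scale. The second TPI1 gene (ENSDARG00000025012) was at 0.37 (adjusted p = 0.000944) and was not called. A phosphoglycerate mutase gene, pgam1a, rose by 0.78. For phosphoglycerate mutase, pgam1b was at 0.21 and PGAM2, the muscle form in mammals, at -0.21 (adjusted p = 0.00258). Pyruvate kinase closes the pathway, and its PKM genes were at 0.61 (ENSDARG00000099730) and 0.12 (ENSDARG00000099860). PKLR, the liver and erythrocyte form in mammals, was called lower at -1.03.

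**Figure D3:**
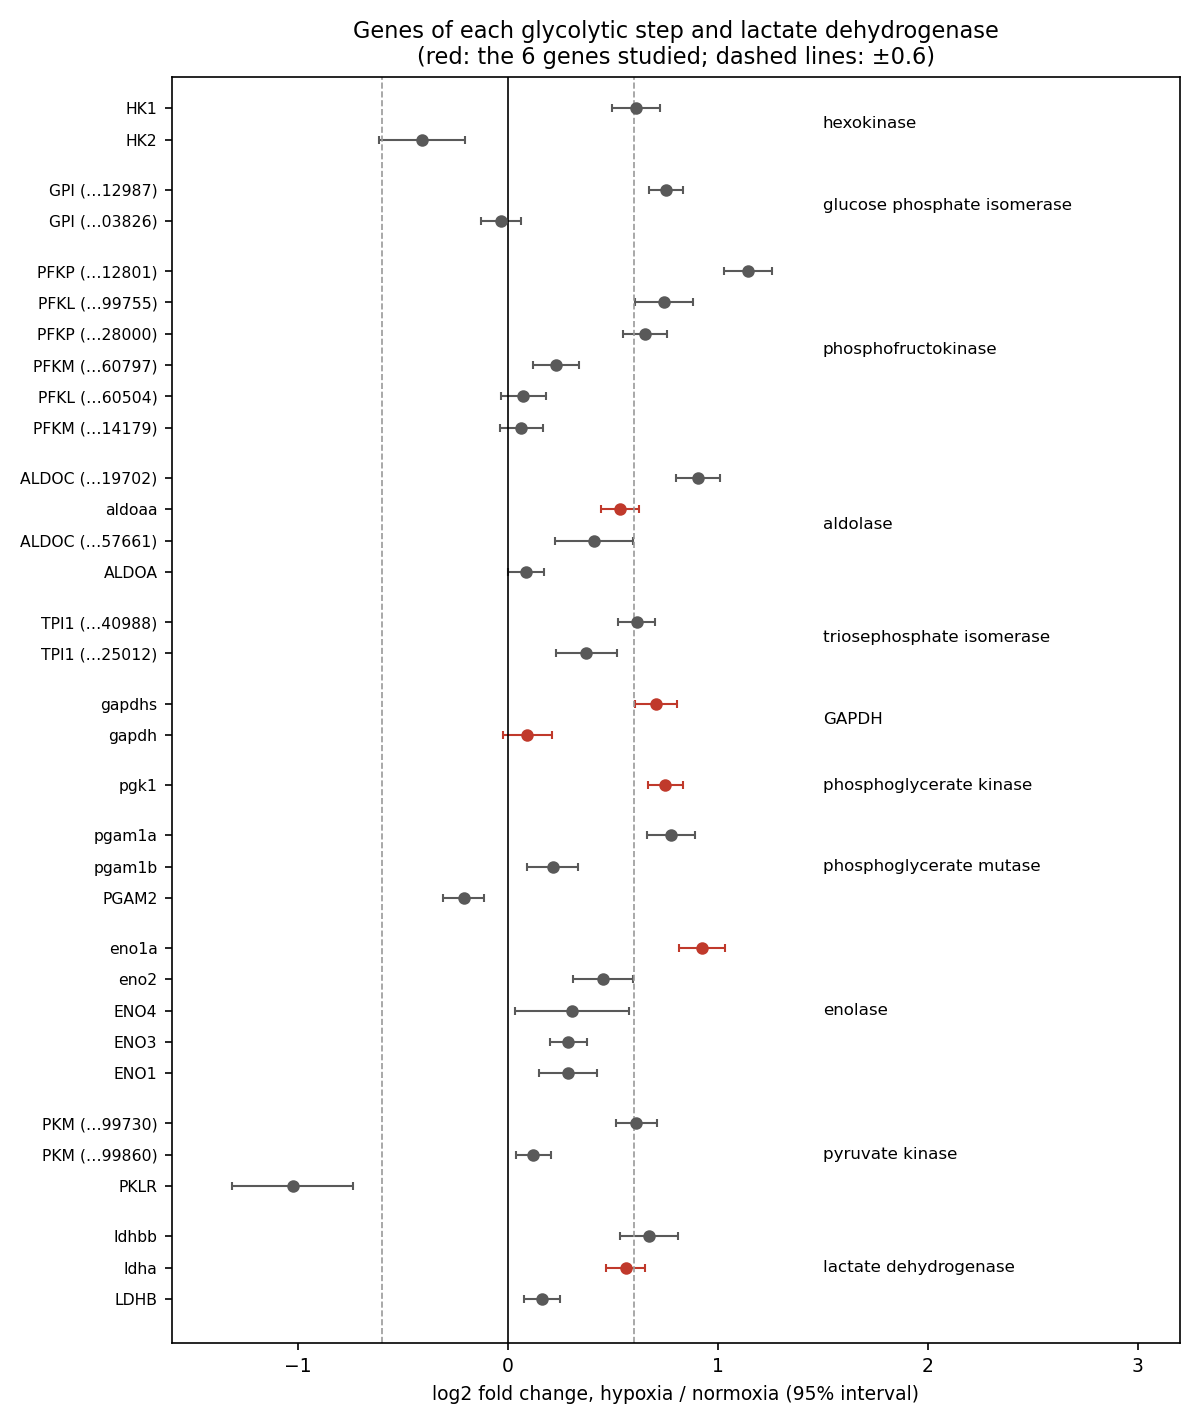
Log2 fold change (hypoxia over normoxia, with 95% interval) of the genes of each enzyme step reported here, from hexokinase to lactate dehydrogenase, with the 6 genes in red. From eno1a at 0.92 to gapdh at 0.09, the red points stand among paralogues that range from PKLR at -1.03 to PFKP (ENSDARG00000012801) at 1.14.

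Glucose enters and lactate leaves the cell through carriers. Of 5 glucose transporter genes, slc2a3a rose from 71.8 to 79.1 CPM in normoxia to 154 to 185 CPM in hypoxia (log2 fold change 1.15), and SLC2A1 (ENSDARG00000001437) rose by 1.01. Of 4 lactate transporter genes, 3 were called higher, beside 3.07% of all tested genes. These were both SLC16A3 genes at 1.12 (ENSDARG00000045051) and 0.997 (ENSDARG00000028583) and SLC16A1 (ENSDARG00000016963) at 0.89. The second SLC16A1 gene (ENSDARG00000068572) was at -0.42 (adjusted p = 0.00177), so the carriers did not all move one way.

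Pyruvate that is not reduced to lactate enters mitochondria through pyruvate dehydrogenase, which the pyruvate dehydrogenase kinases switch off. PDK2 (ENSDARG00000059054) rose by 1.07 on the log2 scale and PDK3 (ENSDARG00000014527) by 0.78. Of the 9 genes of this group these 2 were called higher, beside 3.07% of all tested genes. The subunit genes pdha1a and PDHB were at -0.10 and -0.06, neither past the test (adjusted p = 0.0586 and 0.249). Another subunit gene, pdha1b, was higher at 0.33 (adjusted p = 0.0218), though not called. Gluconeogenesis runs the route in reverse, and none of its 7 tested genes was called by edgeR in either direction. Its listed symbols g6pc1a.2, pcxa and pcxb were not matched, so the group was not covered in full. At an adjusted p under 0.05 alone 3 of the 7 were lower. The share of all tested genes lower by that rule was not determined, so the 3 are not read as a result about this route. One further gene named G6PC1 did not pass the count filter.

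Among the genes of the list called lower were PKLR and SLC2A2, the glucose transporter of liver in mammals, which went from 22.74, 17.98, 22.57 and 22.29 CPM in normoxia to 15.95, 11.08 and 10.99 CPM in hypoxia (log2 fold change -0.75, adjusted p = 0.000859). Both are genes of the liver in mammals, and the liver markers were lower in the same libraries. All 4 markers were called lower, where 7.45% of all tested genes were, and their summed level was 1537 to 2149 CPM in normoxia and 429 to 1094 CPM in hypoxia. In pools of whole larvae, fewer cells of a type and less RNA per cell cannot be told apart, and the part of the liver in these values was not tested.

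To weigh the steps against each other, the CPM of all listed genes of a step were summed. These sums are descriptions, since they count longer transcripts more. All 11 enzyme steps were higher in hypoxia, with every hypoxia library above every normoxia library. This held for 26.3% of all tested single genes. The share among other sums of genes was not determined, so the count of steps is a description only. Phosphoglycerate kinase, with its single gene, had the largest log2 difference (0.75, or 1.68-fold), followed by triosephosphate isomerase (0.60), enolase (0.59), glucose phosphate isomerase (0.54) and hexokinase (0.49).

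The GAPDH step, where gapdhs rose and gapdh did not pass the test, was at 1622 to 1751 CPM in normoxia and 2134 to 2279 CPM in hypoxia, a log2 difference of 0.39. Lactate dehydrogenase was at 1003 to 1031 CPM and 1289 to 1323 CPM (0.36), and aldolase at 2093 to 2148 CPM and 2665 to 2721 CPM (0.34). Phosphoglycerate mutase (0.29) and pyruvate kinase (0.23) changed least. In the enolase step the sum was 1235 to 1276 CPM in normoxia and 1814 to 1954 CPM in hypoxia. The step totals spanned a narrower range than the single genes of the route, as sums over genes must, so this is no separate result. With library size as the only scaling the differences were 0.13 (pyruvate kinase) to 0.65 (phosphoglycerate kinase).

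**Figure D4:**
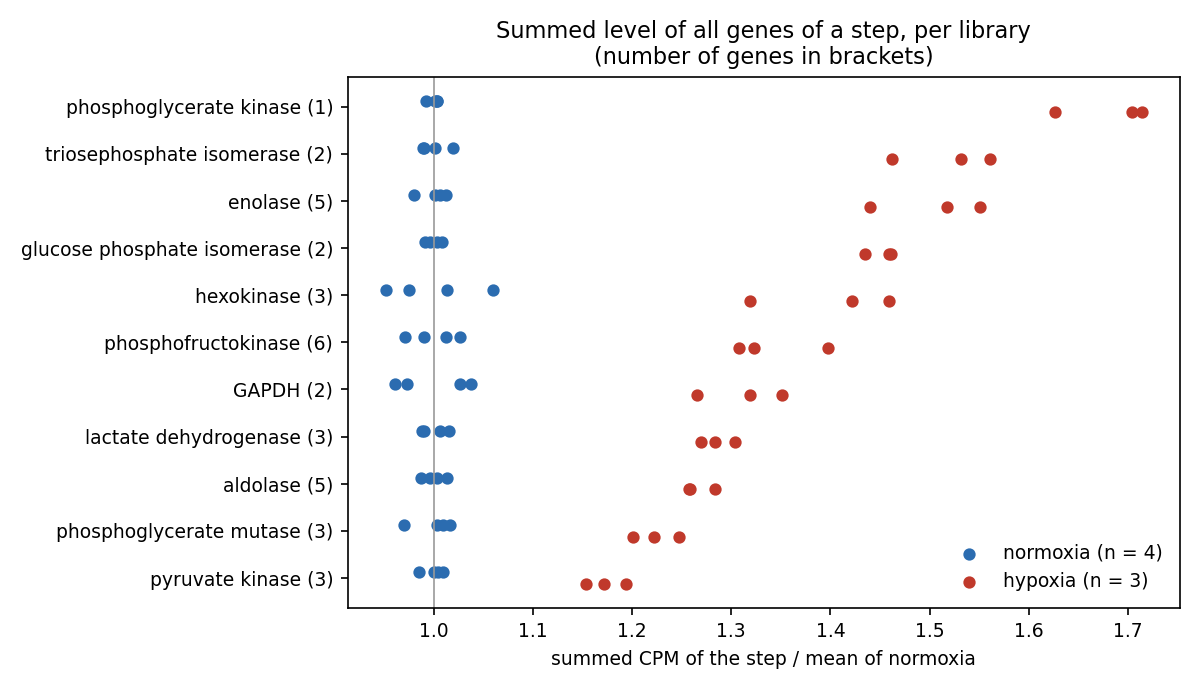
Summed TMM-scaled CPM of all listed genes of each enzyme step, divided by the normoxia mean of that sum (x axis, linear and not starting at 0), in each normoxia and hypoxia library (points), with the number of genes in brackets. The hypoxia points lie above the normoxia points in all 11 steps, with mean ratios from 1.17 for pyruvate kinase to 1.68 for phosphoglycerate kinase.

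Tissue markers moved in the same libraries. Where several genes shared the human-style symbol of a marker, all of them were counted. Over all tested genes, 24.6% were higher at an adjusted p under 0.05, with a median log2 fold change of -0.0044. By both thresholds 3.07% of all tested genes were called higher and 7.45% lower. The 14 skeletal muscle markers had a median log2 fold change of 0.30, and 12 were higher at an adjusted p under 0.05, but none was called by both thresholds in edgeR's test. Their summed level was 79960 to 87263 CPM in normoxia and 101954 to 105433 CPM in hypoxia. The 11 neuron markers had a median of 0.39 (10 higher and 1 lower at an adjusted p under 0.05, none called), with a summed level of 2362 to 2564 CPM in normoxia and 3069 to 3531 CPM in hypoxia. The lower gene of the neuron list shared the symbol STMN1 (ENSDARG00000004169, log2 fold change -0.51) with a gene that rose by 0.44 (ENSDARG00000033655). The list named only stmn1b, and the symbol does not tell which of these genes it is. Of the 6 erythrocyte markers, 3 were called higher and 1 lower, with a median of 0.79 and a summed level of 390 to 507 CPM in normoxia and 520 to 741 CPM in hypoxia. The lower gene of the erythrocyte list shared the symbol SLC4A1 (ENSDARG00000024560, log2 fold change -1.34) with a gene called higher at 1.02 (ENSDARG00000012881). Here the list named only slc4a1a, so the lower gene may be a paralogue that is not the intended marker. Another gene called higher, hbbe3, had low levels that overlapped between the groups, with means of 0.32 CPM in normoxia and 1.14 CPM in hypoxia. Of the 6 heart muscle markers, 1 was called lower and none higher, with a median of -0.30 and a summed level of 59.9 to 65.1 CPM in normoxia and 42.1 to 66.7 CPM in hypoxia. All photoreceptor and epidermis markers stayed uncalled, with medians of 0.04 and -0.04. The part of these tissues in the values of the 6 genes was not tested.

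Finally, the genes whose pattern over the 7 libraries was most like that of the members were sought among the 20597 other tested genes whose mean count was 50 or more, by the Pearson correlation of log2 CPM. With the mean of the 6 scaled members, these were BSG (r = 0.997), SLC45A2 (r = 0.997) and UBASH3B (r = 0.996). BSG encodes basigin, a membrane protein that accompanies lactate transporters to the cell surface. It rose from a mean of 414 to 522 CPM (log2 fold change 0.33, adjusted p = 9.52e-05). For single members the closest genes were si:dkey-177p2.6 for aldoaa, RND3 for gapdhs, akt1s1 for pgk1, PER2 for eno1a and BARHL1 for ldha, with r of 0.998 to 0.999, and mcrip2 for gapdh with r = 0.989. PER2, a gene of the circadian clock, rose from a mean of 9.44 to 50.1 CPM. These correlations over 7 libraries mostly follow the difference between the groups and are given as descriptions.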

How the data were processed

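Poly(A) RNA libraries of 4 normoxia and 3 hypoxia pools of larvae were analysed, grouped by the sample labels. The authors trimmed reads (Trimmomatic 0.39), mapped them with STAR 2.7.10 to GRCz11 under the gene models of Ensembl release 113, counted them per gene (featureCounts 2.0.7) and deposited whole-number counts without normalization. The strand setting and the counting of reads with several positions are not given in the sources used here.

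Counts were filtered (filterByExpr), scaled by TMM and tested with edgeR 4.0.16 in R 4.3.3 (glmQLFit, glmQLFTest, Benjamini-Hochberg). The standard error is the absolute log2 fold change divided by the square root of F. Count ratios within libraries were compared by exact permutation tests over all divisions of the libraries into groups of the same sizes. The p-value is the share of divisions with an absolute difference at least as large, and its Benjamini-Hochberg adjustment used scipy 1.17.1. The functions were tested on simulated data. Alternatives were DESeq2 1.42.0, other scalings, filters and thresholds, the replicate number as a block, leaving out each library and, added after seeing the data, cyclic loess with limma 3.58.1.

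The 6 genes, the pathway and marker lists and the rule for named genes were chosen with earlier results of these data known. The rule names all 6 genes, any gene of the pathway list by step, and the genes most correlated with the 6. Symbols come from an identifier table that named 23250 of the 25049 genes. The RefSeq annotation of GRCz12tu shows no gene overlapping any of the 6. Genes of the pathway list that are not named are counted in its totals and step sums, and some of their values are not reported here.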

Additional observations from a re-analysis of the deposited data

Results flagged for a closer look

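In 5 of 32 sets of 4 normoxia libraries, 1 library lay apart from the other three by Dixon's criterion, where chance gives about 1.6, and the sets share genes. For pgk1 the lowest library, normoxia 4 at 347.6 CPM, lay apart from the others at 350.8 to 351.4 CPM, with a gap of 0.847 of the whole range. The summed level of the phosphoglycerate kinase step, the same gene, gives the same 0.847. The log2 ratio of eno1a to pgk1 was 0.46 in normoxia 1 and 0.51 in the others (0.989 of the range), and that of eno1a to gapdhs was -0.64 in normoxia 1 and -0.56 to -0.55 in the others (0.861). The log2 ratio of ldha to aldoaa stood apart in normoxia 3 (0.867 of the range), where ldha had 0.820 counts per aldoaa count and the other three libraries 0.764 to 0.772.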

How the results depend on the processing

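The 3 called members were called under DESeq2, its size factors, library size alone, upper-quartile factors, other count filters and without each library in turn (3 in every case). The 15 ratios between members kept their direction in all 150 values under alternatives. Where the groups did not overlap, leaving out 1 library could not reverse a ratio. Ratios within a library also hardly depend on scaling, so most of these outcomes were fixed in advance. The smallest of the 15 ratios changed most in relative size without 1 library. That of pgk1 to gapdhs went from 0.0464 to 0.0261 without hypoxia 1. That of ldha to aldoaa went from 0.0276 to 0.00933 without hypoxia 1 and to 0.0515 without normoxia 3. Other exceptions follow. With library size alone gapdh was at -0.0042 (adjusted p = 0.956) and with loess at -0.0595 (adjusted p = 0.421), and gapdhs was at 0.55 with loess. Loess also lowered eno1a to 0.79, pgk1 to 0.63, ldha to 0.43 and aldoaa to 0.40, each below its main 95% interval. With library size alone pgk1 was at 0.654, ldha at 0.464 and aldoaa at 0.437, also below their main intervals. Where the test itself held the fold-change threshold (glmTreat), gapdhs, at 0.70, was not called (adjusted p = 0.198), and 2 members passed. At a log2 threshold of 1 there were 0 members called, since gapdhs, pgk1 and eno1a were at 0.70, 0.75 and 0.92.

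Over all genes, 729 were called higher and 1766 lower. There were 427 higher with library size alone, which moved the median over all genes, on the log2 scale, from -0.0044 to -0.10 and the share of higher calls from 29.2 to 14.7%. There were 133 higher and 167 lower with glmTreat (44.3% higher), and 172 and 513 at a log2 threshold of 1. Of the other 60 list genes, 18 were higher and 3 lower. With glmTreat these were 10 and 1, at a threshold of 1 there were 6 higher, and with loess 5 were lower.

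Leaving out 1 library gave 576 to 913 genes higher and 1271 to 2266 lower, 5 members of 6 at an adjusted p under 0.05, and 15 to 18 list genes higher and 3 to 6 lower, the 6 without hypoxia 1. The log2 fold changes ranged from 0.06 to 0.12 (gapdh), 0.67 to 0.75 (gapdhs), 0.54 to 0.57 (ldha), 0.73 to 0.77 (pgk1), 0.88 to 0.98 (eno1a) and 0.51 to 0.56 (aldoaa). With the replicate number as a block, in libraries 1 to 3 of each group, 2700 genes were called, against 2644 in the same libraries without it, and 3 members. The correlations of equally numbered libraries' deviations were 0.19, 0.05 and 0.02, so the numbers were not taken to pair the pools. The cause of these changes was not tested. Depth did not limit the 6 genes, but intervals rest on 3 and 4 pools and do not include the choice of scaling.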
